A study of Mus musculus with 6 samples.

Results

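The Sox transcription factors are DNA-binding proteins that share a high-mobility-group domain, and 8 of them were followed here through cultured neuroblastoma cells: Sox1, Sox2, Sox3, Sox4, Sox9, Sox10, Sox11 and Sox12. The members were chosen by gene symbol, and all 8 were among the 21878 rows of the table. The 12 further Sox genes, also present in the table, serve as the rest of the family. Neuro-2a, a mouse neuroblastoma line, was used throughout. Of its 6 RNA sequencing libraries, 2 came from control cells labelled wild type, 2 from cells made to overexpress the long noncoding RNA lncPim1 and 2 from cells treated by RNA interference against lncPim1, called the knockdown below. For the controls neither a vector nor a scrambled RNA is named, no time after treatment is given, and separate cultures are not mentioned for libraries within a group, so p-values measure a spread between libraries that may be only technical. The level of lncPim1 was not analysed here, since no row has that name, so the labels were not checked on it. The libraries were made with a stranded messenger RNA kit, per the labels.

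Sox proteins bend DNA at a short recognition sequence and act with partner factors, and they are sorted into groups by the similarity of this domain. Sox1, Sox2 and Sox3 form group B1 and keep neural progenitors in an undifferentiated state. Sox4, Sox11 and Sox12 form group C and are known for switching on neuronal genes in differentiating neurons, sympathetic neurons among them. Sox9 and Sox10 belong, with Sox8, to group E and are known for neural crest, glia and cartilage.

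The sequences just upstream of the group C genes are shown because these genes carry most Sox RNA in these cells. A link between these sequences and the levels of the genes was not tested. RefSeq promoters, on build GRCm38.p6, were matched for 5 of the 8 members (Sox1, Sox2, Sox4, Sox11 and Sox12), and Sox3, Sox9 and Sox10 have no entry. The 250 bases before the RefSeq start of Sox4 lie at chr13:28953700-28953949, those of Sox11 at chr12:27342719-27342968 and those of Sox12 at chr2:152398047-152398296, each on the minus strand and written 5′ to 3′ along the gene. Capitals mark CCAAT boxes (CCAAT, or ATTGG on the other strand) and GC boxes (GGGCGG, or CCGCCC on the other strand).
Sox4: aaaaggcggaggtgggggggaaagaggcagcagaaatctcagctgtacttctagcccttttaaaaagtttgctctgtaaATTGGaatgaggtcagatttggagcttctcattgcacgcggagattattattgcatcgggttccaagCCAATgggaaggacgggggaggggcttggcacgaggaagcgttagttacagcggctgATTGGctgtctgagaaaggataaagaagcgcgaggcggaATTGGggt
Sox11: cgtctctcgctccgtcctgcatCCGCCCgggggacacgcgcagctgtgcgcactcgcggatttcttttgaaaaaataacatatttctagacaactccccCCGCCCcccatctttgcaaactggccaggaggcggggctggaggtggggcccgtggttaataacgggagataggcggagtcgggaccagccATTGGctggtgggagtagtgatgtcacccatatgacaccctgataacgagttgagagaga
Sox12: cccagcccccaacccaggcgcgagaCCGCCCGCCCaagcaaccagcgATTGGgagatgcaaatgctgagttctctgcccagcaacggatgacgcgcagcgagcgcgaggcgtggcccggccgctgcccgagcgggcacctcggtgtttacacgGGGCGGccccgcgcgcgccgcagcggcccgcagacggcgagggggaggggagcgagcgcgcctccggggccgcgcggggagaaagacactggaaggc

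The Sox4 window held 4 CCAAT matches and 0 GC boxes, the Sox11 window 1 and 2, and the Sox12 window 1 and 3, the first 2 of which overlap. At least 1 CCAAT match was found in 33.8% of the 32851 promoter windows of this length, 4 or more in 0.840%, at least 1 GC box in 32.7% and 3 or more in 8.47%. GC content was 50.8% for Sox4, 58% for Sox11 and 74.4% for Sox12, against a median of 52.4% over all windows, and the windows held 11, 17 and 35 CpG dinucleotides against a median of 6. Neither strand of the 3 windows held a TATA box (TATAAA, in 12.4% of all windows), a Sox core (ACAAAG or ACAATG, 25.2%), an E-box (CACGTG, 6.02%), an AP-1 site (TGACTCA, 4.46%) or an EGR1 site (GCGTGGGCG, 0.536%). These are matches of letters, and absence says only that the letters are not in the window.

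Levels are in FPKM, a fragment count scaled to transcript length and library total, as deposited. Summed FPKM ran from 272528 to 305463 per library and between 15120 and 15573 rows were above 0. Absolute depth is unknown. Of 14 sympathetic neuroblastoma markers, 12 averaged 1 FPKM or more, among them the autonomic transcription factor Hand2 at 68.3 to 111.1 FPKM. The other two, Hand1 and the noradrenaline enzyme gene Dbh, stayed at or below 0.509 and 0.494. Of the markers of other cell types, 5 of 6 for fibroblasts, 4 of 4 for astrocytes, 5 of 6 for macrophages and 3 of 4 for endothelium stayed below 1 FPKM in every library. The exceptions in these lists were Pdgfra, at 0.491 to 1.12 FPKM, Cd74, at 52.1 to 80.8, and Pecam1, at 1.36 to 2.34. Of 8 digestive tract markers only 1 stayed below 1 FPKM in every library, and their sums are given with the knockdown results. Fold changes are differences of log2(FPKM + 1) between group means, tested with limma across the 10721 genes averaging 1 FPKM or more, and a gene is called at a Benjamini-Hochberg adjusted p under 0.05. With 2 libraries a group, an exact permutation test of 1 gene cannot go below p = 0.333.

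Of the 8 members, 4 passed this filter: the 3 group C genes and Sox9. Sox1, Sox2 and Sox3, the progenitor factors, were listed at 0 in all 6 libraries. The noncoding genes Sox1ot and Sox2ot overlap Sox1 and Sox2 on the same strand and have no row. How reads shared with them were counted is not stated, so these zeros may not show absence of the transcripts. Sox10, the neural crest and glial factor, was listed at 0 in 4 libraries and stood at 0.0182 FPKM in control 2 and 0.0691 in knockdown 1. None of these 4 was tested. The order of levels in control cells was Sox4, Sox11, Sox12 and Sox9. Sox4 alone made up between 52.9% and 64.9% of the FPKM summed over all 20 Sox genes of the table, with the highest share in control 2 and the lowest in knockdown 2.

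**Figure D1:**
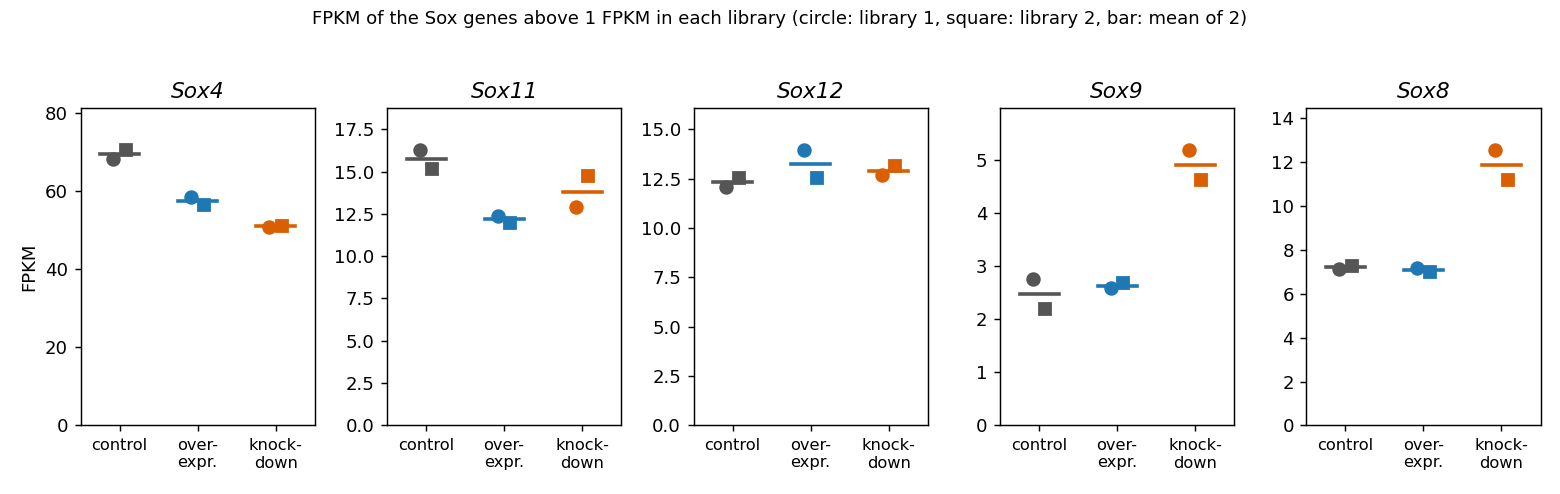
FPKM (vertical axis, from 0) of the 5 Sox genes with a mean above 1 FPKM, by group, with a point for each library and a bar at the mean of the 2 libraries. Sox4 lies between 50.8 and 51.0 in the knockdown and between 68.1 and 70.5 in the controls, while Sox9 and Sox8 are high in the knockdown libraries.

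Sox4, which promotes neuronal differentiation and survival and is often abundant in tumours, was the most abundant member and was lower in both treated groups than in control cells. Its level was 68.1 and 70.5 FPKM in controls, 58.5 and 56.4 in the overexpression libraries and 50.8 and 51.0 in the knockdown libraries. No groups overlapped, and every treated library lay below both controls. The means were 69.3 ± 1.67 (SD, n = 2), 57.5 ± 1.47 and 50.9 ± 0.163. Sox4 ranked between 756 and 956 among all rows by FPKM in each library, so it stayed among the more abundant transcripts in all 3 groups. In RNA from a whole culture, fewer cells with a transcript and less of it per cell cannot be told apart. Sox4 lies on chromosome 13 from 28948919 to 28953713 (build GRCm38, GENCODE M21) in a single exon, and the noncoding gene Gm26735 overlaps it on the other strand. How strand was handled in counting is not stated in these sources, so reads of the pair may be mixed.

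Sox11, a close relative of Sox4 that acts in the same neurons, had its highest level in control cells as well. Controls gave 16.3 and 15.2 FPKM, overexpression libraries 12.4 and 11.95, and knockdown libraries 12.9 and 14.7. All 4 treated libraries lay below both controls, and the knockdown library of 14.7 came close to the control of 15.2. Sox11 is a gene of 1 exon on chromosome 12, from 27334264 to 27342574. Sox12, the third group C gene, whose own loss is tolerated in mice where its relatives are present, differed less. Controls gave 12.1 and 12.5 FPKM, overexpression libraries 13.97 and 12.5, and knockdown libraries 12.7 and 13.1. The overexpression and control libraries overlapped, and the knockdown libraries lay just above the controls. Sox12 lies on chromosome 2 from 152393611 to 152398063.

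Sox9, which drives cartilage and glial fates, was the lowest of the tested members and was higher under knockdown. Controls gave 2.76 and 2.19 FPKM, overexpression libraries 2.59 and 2.67, and knockdown libraries 5.19 and 4.62. Both knockdown libraries lay above the other 4, and the overexpression libraries fell between the controls. Sox9 has 3 exons on chromosome 11, from 112782224 to 112787760. Its relative Sox8, of group E but outside the 8 members, had the same arrangement, with 7.14 and 7.26 FPKM in controls, 7.155 and 7.001 in overexpression libraries and 12.6 and 11.2 in knockdown libraries. The antisense gene 2810468N07Rik overlaps Sox8 on chromosome 17.

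To ask what overexpression of lncPim1 did to the Sox genes, overexpressing cells were compared with controls. Sox4 was lower and no tested member was higher: 1 of 4 members was called, lower, where 1.54% of all tested genes were called, 0.690% higher and 0.849% lower. The log2 fold change of Sox4 was -0.27 ± 0.05 (SE; limma, adjusted p = 0.0345), a change in mean FPKM of -17.1%. Among all tested genes, 5.59% had a larger absolute change. Sox11 had a larger estimate, -0.34 ± 0.07, and was not called (limma, adjusted p = 0.0576), with a 95% interval of -0.51 to -0.18 before adjustment. Its mean FPKM changed by -22.6%. Sox12 (0.10 ± 0.06, interval -0.05 to 0.24) and Sox9 (0.07 ± 0.10, interval -0.15 to 0.29) were not called (limma, adjusted p = 0.502 and 0.773), and neither was Sox8 (-0.02 ± 0.07, interval -0.18 to 0.13; adjusted p = 0.906).

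The Sox4 call under overexpression was lost without control 1 (limma, adjusted p = 0.193), control 2 (0.189), overexpression 1 (0.136) or overexpression 2 (0.132), each of which leaves a single library in a group, and with the replicate number as a block (0.0851). Its fold change stayed between -0.29 and -0.23 over the 15 alternative settings. Sox11 passed when a knockdown library was left out (limma, adjusted p = 0.0397 without knockdown 1 and 0.0405 without knockdown 2), and its fold change stayed between -0.39 and -0.29.

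**Figure D2:**
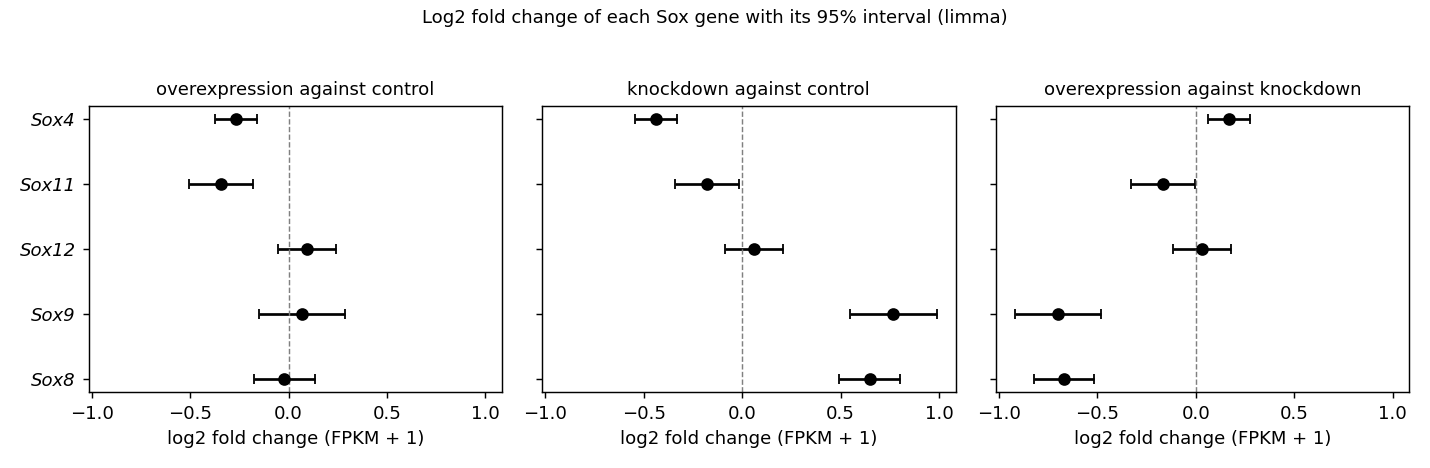
Log2 fold change (horizontal axis) of the 5 Sox genes in the 3 comparisons, with the limma estimate as a point and its unadjusted 95% interval as a bar. Under knockdown Sox4 sits at -0.44 and Sox9 and Sox8 at 0.77 and 0.65, and the intervals of Sox12 cross 0 in all 3 comparisons.

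To ask what lowering lncPim1 did, knockdown cells were compared with the same controls, so the 2 comparisons share libraries. Sox9 was higher and Sox4 lower, and Sox11 and Sox12 were not called. Called members thus numbered 2 of 4, 1 in each direction, where 46.2% of all tested genes were called, 14.8% higher and 31.3% lower. After scaling by the median log ratio the called genes numbered 2245 higher and 2286 lower, in place of 1590 and 3358, and after quantile normalization 2003 and 2292. Sox9 was 1.98-fold as high as in control cells, with a log2 fold change of 0.77 ± 0.10 (limma, adjusted p = 5.00e-04). Only 1.78% of all tested genes had a larger absolute change. Sox4 fell by 0.44 ± 0.05 on the log2 scale (limma, adjusted p = 2.68e-04), a change in mean FPKM of -26.5%, and 11.7% of tested genes had a larger absolute change. The calls of Sox4 and Sox9 held in each of the 15 and 14 alternative settings that gave a value, with log2 fold changes of -0.46 to -0.26 and 0.65 to 0.97. The smallest Sox4 value, -0.26, came from quantile normalization (limma, adjusted p = 0.00363).

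Sox11 had a log2 fold change of -0.18 ± 0.07 under knockdown (limma, adjusted p = 0.0713; interval -0.34 to -0.01). It was called only without knockdown 2 (-0.26; limma, adjusted p = 0.0229), the library nearest to the controls. Sox12 stood at 0.06 ± 0.06 (limma, adjusted p = 0.465; interval -0.09 to 0.21). Sox8 was called higher, by 0.65 ± 0.07 (limma, adjusted p = 2.41e-04), a 1.65-fold level, and stayed called in all 15 settings. It was the only gene among the 12 further Sox genes to pass the filter.

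**Figure D3:**
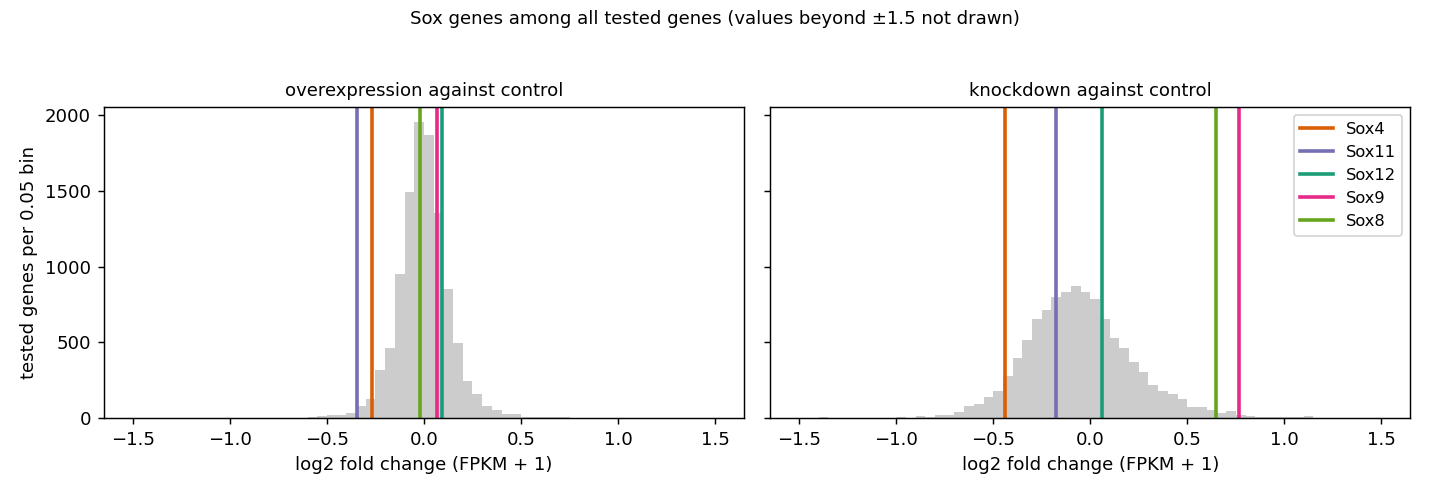
Histogram of log2 fold changes (horizontal axis) of the 10721 tested genes, in bins of 0.05, with a coloured line for each of the 5 Sox genes. Under overexpression Sox4 and Sox11 lie in the left tail, and under knockdown Sox9 and Sox8 lie in the right tail of a wider distribution.

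Overexpressing and knockdown cells were compared directly. Of the 4 tested members Sox4 was higher and Sox9 lower under overexpression, where 40.5% of all tested genes were called, 28.1% higher and 12.4% lower. The split was 3013 higher and 1332 lower, against 1951 and 1908 with median log ratio scaling and 1930 and 1707 with quantile normalization. Sox9 differed by -0.70 ± 0.10 on the log2 scale (limma, adjusted p = 0.00111) and Sox8 by -0.67 ± 0.07 (limma, adjusted p = 4.09e-04), and both calls held in all settings that gave a value. Sox4 differed by 0.17 ± 0.05 (limma, adjusted p = 0.0198). Scaling to the median log ratio ended the Sox4 call (0.09, with limma's adjusted p = 0.144), as did quantile normalization (0.03, with limma's adjusted p = 0.614), and it was also lost without overexpression 1 (limma, adjusted p = 0.105), knockdown 1 (0.0670) or knockdown 2 (0.0538). Whether Sox4 was called between the treated groups therefore changed with the scaling of the libraries. Sox11 (-0.17 ± 0.07; limma, adjusted p = 0.0930) was not called, but passed with limma under median log ratio scaling (-0.24, adjusted p = 0.0321), quantile normalization (-0.24; 0.0386) and without knockdown 1 (-0.25; 0.0348). Sox12 (0.03 ± 0.06; limma, adjusted p = 0.701) was not called.

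Ratios between genes of the same library do not change when a library is multiplied by a single factor, though quantile normalization can change them. The ratio of Sox4 to Sox12 was 5.63 and 5.62 in controls, 4.19 and 4.51 under overexpression and 4.01 and 3.89 under knockdown. Both controls lay above every treated library, and the treated groups did not overlap. Sox11 to Sox12 gave 1.35 and 1.21 in controls, 0.887 and 0.955 under overexpression and 1.02 and 1.12 under knockdown. Sox11 thus had the higher FPKM of the pair in both controls and the lower in both overexpression libraries. This change of order was not tested, and neither gene was called under overexpression. Sox4 to Sox11 gave 4.18 and 4.65 in controls, 4.72 and 4.72 under overexpression and 3.93 and 3.47 under knockdown. Sox9 to Sox12 gave 0.228 and 0.175 in controls, 0.185 and 0.214 under overexpression and 0.409 and 0.352 under knockdown. Sox8 to Sox9 gave 2.59 and 3.32, 2.77 and 2.62, and 2.42 and 2.42 in the same order, with both knockdown libraries below the other 4. Summed over the 3 group C genes, FPKM was 96.5 and 98.2 in controls, 84.9 and 80.9 under overexpression and 76.4 and 78.9 under knockdown. Summed over Sox8, Sox9 and Sox10 it was 9.90 and 9.47, 9.74 and 9.67, and 17.8 and 15.8.

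**Figure D4:**
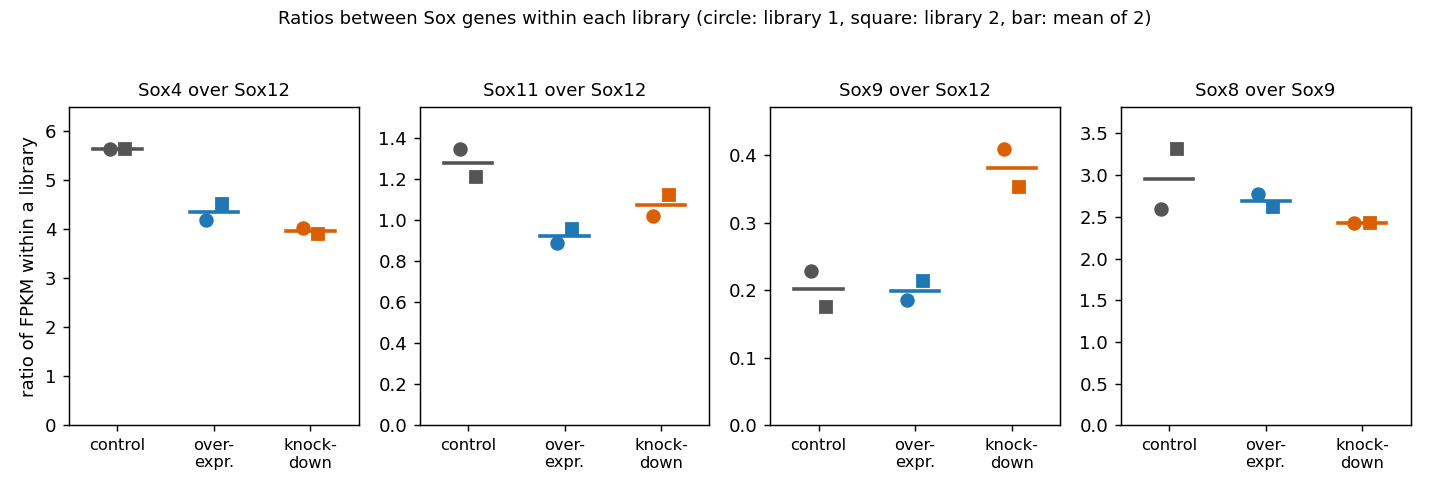
Ratio of FPKM between pairs of Sox genes within a library (vertical axes, from 0), by group, with a point for each library and a bar at the mean of the 2 libraries. Sox4 over Sox12 is 5.62 or more in the controls and 4.51 or less in the treated libraries, and Sox9 over Sox12 is highest in the knockdown libraries.

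The other family members were scarce. Sry, Sox14, Sox17 and Sox21 were listed at 0 in all libraries. Sox6, a group D factor, stood between 0.702 and 0.988 FPKM, with both overexpression libraries highest, just under the filter. Sox5, Sox7, Sox13, Sox18 and Sox30 stayed at or below 0.5003 FPKM in every library. Sox15 was listed at 0 in control and overexpression libraries and stood at 0.416 and 0.127 under knockdown. Without a filter it was not called (limma, adjusted p = 0.0693). Sox15 overlaps Mpdu1 on the other strand.

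Genes with profiles closest to the called members were found from log2(FPKM + 1) over the 6 libraries, each profile centred on its mean, by the root mean square difference. For Sox4 these were Ube2a (0.025), Ptdss1 (0.029) and Tex30 (0.031), against 0.181 for Sox4 about its own mean. Ube2a, a ubiquitin-conjugating enzyme gene, stood at 15.4 and 15.4 FPKM in controls, 13.1 and 12.6 under overexpression and 11.6 and 11.1 under knockdown. For Sox9 they were Rel (0.053), Irf9 (0.055) and Dqx1 (0.066), against 0.356 for Sox9 itself. Rel, which encodes an NF-kB subunit, stood at 2.60 and 2.27 FPKM in controls, 2.61 and 2.35 under overexpression and 5.03 and 4.41 under knockdown. For Sox8 they were Sertad1 (0.037), Poli (0.040) and Prpf38b (0.041), against 0.314.

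Lists of genes linked to each Sox group were compared with all tested genes, whose median log2 fold change was -0.003 under overexpression and -0.07 under knockdown. The counts of called genes in each list stand beside 46.2% of all tested genes called under knockdown, 31.3% lower and 14.8% higher, and 1.54% under overexpression. Of 8 genes reported downstream of group C, 5 were tested. Under knockdown 3 were lower and 0 higher (31.3% and 14.8% of all tested genes), with a median of -0.42: Tubb3, neuronal beta-tubulin (-0.65 ± 0.05; limma, adjusted p = 1.19e-04), Ezh2, the Polycomb methyltransferase (-0.60 ± 0.05; limma, adjusted p = 1.19e-04), and Insm1, a neuroendocrine zinc-finger factor (-0.42 ± 0.10; limma, adjusted p = 0.00927). Insm1 was not called without control 1 or knockdown 1, nor after quantile normalization or without a filter. Tubb3 stood at 396.8 and 388.4 FPKM in controls, 312.8 and 336.9 under overexpression and 245.8 and 253.0 under knockdown. Under overexpression Tubb3 was the only one called (-0.27 ± 0.05; limma, adjusted p = 0.0470), a call kept in 4 of 15 alternative settings and lost on leaving out any one of the 6 libraries (limma, adjusted p of at most 0.267 over the settings), and the median was -0.11. Dcx, the doublecortin gene, named after its values were seen, lay under the filter, at 0.346 and 0.232 FPKM in controls, 0.0977 and 0.104 under overexpression and 0.0351 and 0.0884 under knockdown. Tead2 and Prox1 of the same list, also under the filter, did not share this fall. Tead2 stood at 0.0214 and 0.0218 FPKM in controls, 0.145 and 0.0240 under overexpression and 0.0209 and 0.154 under knockdown. Prox1 was highest at 0.0160, in overexpression 1.

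Of 8 general neuronal differentiation genes, 5 were tested, and 3 were lower and 0 higher under knockdown, where 31.3% and 14.8% of all tested genes were, with a median of -0.21. Elavl4, a neuronal RNA-binding protein, fell by 0.51 ± 0.06 (limma, adjusted p = 4.41e-04) and Ina, the intermediate filament internexin, by 0.46 ± 0.08 (limma, adjusted p = 0.00216). Elavl3 fell by 0.21 ± 0.05 (limma, adjusted p = 0.0130), and was not called without control 2 or knockdown 2, nor after median log ratio scaling or quantile normalization. Gap43, a gene of growing neurites, stood at -0.16 ± 0.06 and was not called (limma, adjusted p = 0.0537). Under overexpression limma called 0 of 5 (smallest adjusted p = 0.0665, for Elavl4), with a median of -0.11.

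Of 15 progenitor genes linked to group B1, 8 were tested although the group's own genes were listed at 0. Under knockdown 4 of 8 were called, all lower, with a median of -0.15, a share near the 46.2% called among all tested genes. Nes, the progenitor filament nestin, fell by 0.32 ± 0.05 (limma, adjusted p = 0.00143), from 22.8 and 22.7 FPKM to 17.7 and 18.5. Lin28a and Lin28b, which block let-7 maturation, fell by 0.30 ± 0.05 and 0.24 ± 0.07 (limma, adjusted p = 0.00260 and 0.0243), and the filament gene Vim by 0.24 ± 0.05 (limma, adjusted p = 0.00348). Lin28b was not called without control 1 or knockdown 1, after median log ratio scaling or without a filter, and after quantile normalization neither Lin28b nor Vim was, which left 2. Without a filter Notch1, at or below 0.0991 FPKM, was called higher under knockdown (0.09 ± 0.02, limma, adjusted p = 0.0302). The other genes of this list under the filter were not called. Under overexpression limma called 0 of 8 (smallest adjusted p = 0.181, for Fgfr1, at 0.28 ± 0.09).

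Of 12 cartilage genes linked to Sox9, only Col11a2 passed the filter, and it was not called under knockdown (0.09 ± 0.10; limma, adjusted p = 0.490). Col2a1 and Acan, its best known cartilage targets and named for that, stayed at or below 0.201 and 0.122 FPKM. Col9a3, a collagen IX gene singled out, like Mia, after its values were seen, stood at 0.225 and 0.143 FPKM in controls, 0.382 and 0.283 under overexpression and 1.67 and 1.95 under knockdown. Its knockdown libraries lay above the other 4. Without a filter Col9a3 was called higher under knockdown (1.24 ± 0.07; limma, adjusted p = 0.00268), as was Mia (0.59 ± 0.09; limma, adjusted p = 0.0118), which was listed at 0 in controls and stood at 0.402 and 0.623. The remaining cartilage genes under the filter were not called, among them Col2a1 (0.11 ± 0.04; limma, adjusted p = 0.107) and Nfia (-0.16 ± 0.06; limma, adjusted p = 0.110). Without a filter 4894 genes in all were called under knockdown, 1867 of them higher. A link of Col9a3 or Mia to Sox9 was not tested.

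Of 17 Schwann cell and melanocyte genes linked to Sox10, 7 were listed at 0 in all libraries, the neural crest factor Foxd3, the melanocyte enzymes Dct and Tyr and the glial cadherin Cdh19 among them, and 5 were tested. Under knockdown Erbb3, the neuregulin receptor, was higher (0.35 ± 0.10; limma, adjusted p = 0.0255) and Pmp22 (-0.53 ± 0.05; limma, adjusted p = 1.81e-04) and Ngfr (-0.28 ± 0.05; limma, adjusted p = 0.00331) were lower, with a median of -0.15. These 3 of 5 stand beside the same 46.2%. Erbb3 was not called without control 1, knockdown 1 or a filter, and Ngfr not after quantile normalization. Summed over all 17, FPKM was 160.5 and 166.0 in controls, 142.0 and 147.9 under overexpression and 129.3 and 121.7 under knockdown, nearly all from Pmp22 and Ngfr. Under overexpression limma called 0 of 5 (smallest adjusted p = 0.0665, for Ngfr).

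Other transcripts also differed in the treated groups. Of the 14 sympathetic neuroblastoma markers, which also count Tubb3 and Elavl4, 12 were tested. Under knockdown 8 were lower and 1 higher, where 31.3% and 14.8% of all tested genes were. Hand2 stood at -0.60 ± 0.06 (limma, adjusted p = 2.23e-04) and Th, the rate-limiting enzyme gene of catecholamine synthesis, at 0.99 ± 0.12 (limma, adjusted p = 4.97e-04). The sum of the 14 markers was 1183 and 1126 FPKM in controls, 952.1 and 1081 under overexpression and 876.8 and 853.0 under knockdown. The sum of 8 digestive tract markers was 26.0 and 20.9, 17.3 and 24.9, and 4.68 and 4.93 FPKM. The sum of the 6 macrophage markers was 52.2 and 61.4, 58.8 and 55.8, and 81.0 and 80.7 FPKM, nearly all from Cd74. Adgre1 was at 0 in 5 libraries. Aif1 stood at 0 and 0.0432 FPKM in controls and 0.165 and 0.118 under knockdown. Without a filter Aif1 was called higher under knockdown (0.16 ± 0.03; limma, adjusted p = 0.0196). Ptprc, Cd14 and Csf1r had estimates below 0 there and were not called. Under overexpression, where Sox4 was lower, 2 of the 12 tested sympathetic markers were called, both lower, beside 0.849% of all tested genes. They were Tubb3, given above, and Isl1, a homeobox gene of the lineage (-0.56 ± 0.09, limma, adjusted p = 0.0218). The Isl1 call was lost without control 1, control 2, overexpression 1 or a filter. Of 7 tested digestive tract markers, limma called 7 lower under knockdown and 1 lower under overexpression, where 31.3% and 0.849% of all tested genes were. The 1 under overexpression was Reg3b (-1.69 ± 0.15; limma, adjusted p = 0.00323), a call lost only without a filter. Fabp1, Reg1, Reg3b and Tff2 were listed at 0 in both knockdown libraries. They passed the filter only through other libraries, as did Apoa1 and Apoa4, which stayed at or below 0.533 and 0.0633 FPKM under knockdown. Passing it already made all these genes lower under knockdown. Reg3b passed only through the controls, at 3.37 and 2.32 FPKM against 0.0677 and 0.310 under overexpression. Passing the filter thus already made Reg3b lower under overexpression too. The part of these shifts in the Sox results was not tested.

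**Figure D5:**
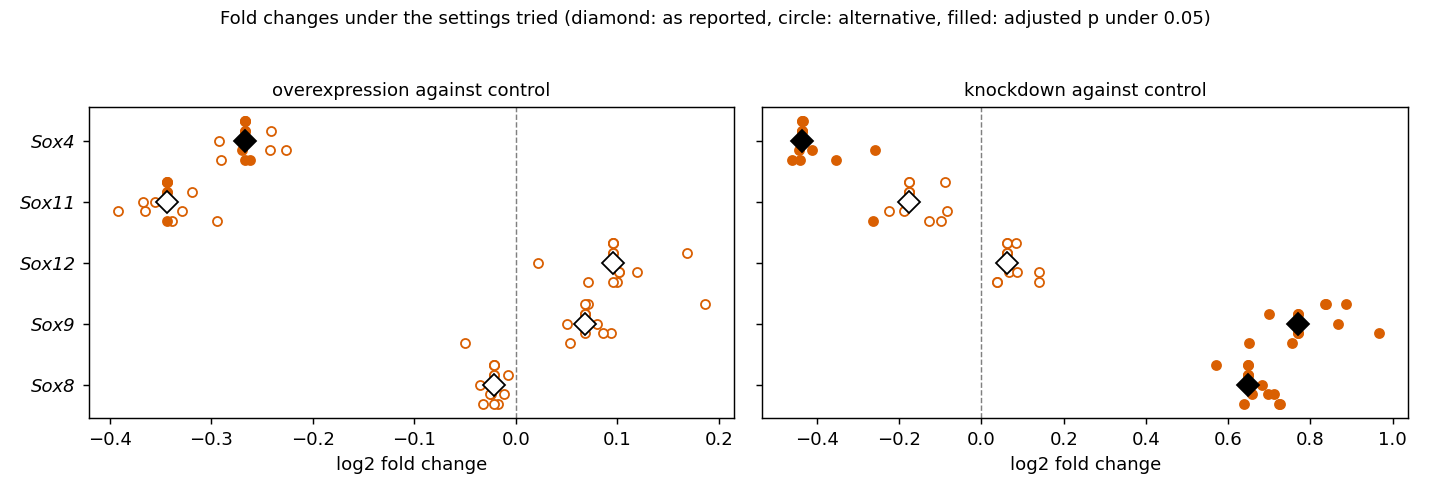
Log2 fold change (horizontal axes, which differ in range) of the 5 Sox genes as reported (diamonds) and under each alternative setting (circles), filled where limma gave an adjusted p under 0.05. Under knockdown all circles of Sox4, Sox9 and Sox8 are filled, while under overexpression Sox4 and Sox11 keep their side of 0 but not always their call.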

How the data were processed

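RNA sequencing of 6 Neuro-2a libraries in 3 groups of 2 was used as deposited. The authors deposited FPKM values per gene symbol. The tools named, per the submitters' processing notes, are HISAT2, Trimmomatic, HTSeq, Cufflinks and DESeq, with build mm10, but not their roles. Versions, annotation and strand handling are not stated in these sources. Because FPKM is relative to a library total, a few abundant genes can shift all others. Between 52.3% and 71.4% of low values per library lay within 0.03 log2 of ratios of small whole numbers, too few to recover reads. The depth relative to control 1 estimated from them was 0.884 to 1.08.

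Values were transformed as log2(FPKM + 1). The 10721 genes averaging 1 FPKM or more were fitted by limma 3.58.1 (R 4.3.3), with 1 mean per group, a shared spread with 3 residual degrees of freedom and a trend with expression, and p-values were adjusted by the Benjamini-Hochberg method over all of them. Gene positions came from GENCODE M21 and promoters from RefSeq.

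Members and lists were chosen with earlier results of these data known. Named genes were every Sox gene, up to 4 and 2 genes of each list by smallest p under knockdown and overexpression, and the 3 nearest profiles of each called Sox gene. Alternatives were pseudocounts of 0.1 and 0.5, no filter (rows at 0 in all libraries left out), a filter at 5 FPKM, 2 normalizations, no trend, only the 4 libraries compared, a replicate block, and leaving out each library.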

Additional observations from a re-analysis of the deposited data

How the results depend on the processing

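Under knockdown, Sox4, Sox9 and Sox8 kept direction and call in every setting that gave a value, and Sox12 was never called; with a filter at 5 FPKM Sox9 was not tested. Under overexpression the Sox4 fall was not called without a filter (-0.27; limma, adjusted p = 0.0832), after quantile normalization (-0.23; 0.0621), without the expression trend (-0.27; 0.0892) or with the replicate block (-0.27; 0.0851), and ranged from -0.29 to -0.24 with a library left out. Sox11 was called with only the 4 libraries compared (-0.34; limma, adjusted p = 0.0390), and with a library left out ranged from -0.39 to -0.29 under overexpression and from -0.26 to -0.089 under knockdown. Sox9 under overexpression ranged from -0.050 (without control 2) to 0.19. Between overexpression and knockdown, median log ratio scaling and quantile normalization ended the Sox4 call (0.092 and 0.032), gave one for Sox11 (-0.24 and -0.24) and turned the uncalled Sox12 estimate (-0.041 and -0.038); with a library left out Sox4 ranged from 0.14 to 0.20, Sox11 from -0.25 to -0.079 and Sox12 from -0.040 to 0.11.

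The 165 genes called under overexpression became 9 without a filter, 97 without the trend, 66 with the replicate block and 14 to 172 with a library left out. Same-numbered libraries did not deviate together: correlations of their deviations over genes were -0.117 (control and overexpression), 0.0069 (control and knockdown) and -0.211 (overexpression and knockdown). The block, with 2 libraries a group and only a number in common, changed no other Sox call. With the overexpression numbers crossed, an alternative chosen after seeing the data, 258 genes were called. Except where a setting leaves fewer libraries or other genes tested, the cause was not tested. Absolute depth is unknown, so low values such as those of Sox10 carry no interval.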

Other observations

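Partners of Sox proteins were measured as well. Among 11 POU factors, which bind beside Sox proteins on many enhancers, Pou3f2, Pou3f3, Pou3f4 and Pou5f1 were listed at 0 in all libraries and 4 were tested. Counts under knockdown stand beside 46.2% of all tested genes called, 31.3% lower and 14.8% higher. Under knockdown Pou6f1 was higher (0.30 ± 0.09; limma, adjusted p = 0.0190) and Pou2f1, the ubiquitous Oct-1 gene, lower (-0.34 ± 0.10; limma, adjusted p = 0.0220). Neither call held without knockdown 1, nor without a filter. That of Pou6f1 was also lost without control 2, and that of Pou2f1 without control 1 and after median log ratio scaling. Under overexpression limma called 0 of 4 (smallest adjusted p = 0.386, for Pou2f2), beside 1.54% of all tested genes.

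Among 14 genes of the beta-catenin and TCF pathway, whose TCF factors carry a related DNA-binding domain, 9 were tested. Under knockdown 6 were lower and 1 higher, where 31.3% and 14.8% of all tested genes were, with a median of -0.30. Ctnnb1, which encodes beta-catenin, fell by 0.50 ± 0.05 (limma, adjusted p = 1.71e-04), from 101.6 and 106.6 FPKM in controls to 72.7 and 73.7, against 93.7 and 95.4 under overexpression. Lef1 fell by 0.30 ± 0.06 (limma, adjusted p = 0.00352) and Tcf7 by 0.35 ± 0.07 (limma, adjusted p = 0.00532). After median log ratio scaling 4 were lower and 1 higher, where 2286 and 2245 of the 10721 tested genes were. Fewer were called without control 1, which leaves a single control library, as among all tested genes. Under overexpression limma called 0 of 9 (smallest adjusted p = 0.187, for Ctnnb1), beside 1.54% of all tested genes.

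Of 15 proneural and neuronal fate factors 3 were tested. Under knockdown Rest, a repressor of neuronal genes, was higher (0.42 ± 0.09; limma, adjusted p = 0.00478), at 4.14 and 3.92 FPKM against 2.71 and 2.83 in controls, and held in all 14 settings that gave a value. Myt1 was lower (-0.34 ± 0.07; limma, adjusted p = 0.00527), as was Myt1l (-0.24 ± 0.09; limma, adjusted p = 0.0490), whose call was kept in only 2 of 14 settings, those without the expression trend and with quantile normalization. Under overexpression limma called 0 of 3 (smallest adjusted p = 0.164, for Myt1), beside 1.54% of all tested genes.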
